A study of Mus musculus with 8 samples.

Results

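The immune cells compared here infiltrated Rnls mutant (Rnls mut) or wild-type (WT) beta cell grafts for 10 days. Every cell that the deposited cell annotation assigned to the mutant or the WT library of day 10 was taken, which gave 14269 of the 22441 cells in the series and 8 of its 16 grafts. The grafts were made of NIT-1 cells, a beta cell line from a tumor of the non-obese diabetic (NOD) mouse, and mutant and WT cells were placed under the skin of opposite flanks of the same immunodeficient NOD.scid mice. Autoimmunity was then transferred with splenocytes of recently diabetic NOD mice, injected into a vein, and day 10 counts from that transfer. NOD.scid mice lack T and B cells of their own but keep their myeloid cells, so host and donor can both have supplied the myeloid cells of a graft. Living CD45+ cells were sorted from each graft, marked with 1 of 4 hashtag antibodies and pooled into 1 droplet library per genotype and day. There were 4 grafts per genotype, with 1664, 1516, 1633 and 1839 cells in the Rnls mut grafts 1 to 4 and 1869, 1967, 1916 and 1865 cells in the WT grafts 1 to 4. Each library held grafts of 1 genotype at 1 day only, so genotype and library cannot be told apart, and p-values cover the spread between the grafts of a library.

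Rnls encodes renalase, a flavin-dependent oxidase. It was edited in the grafted beta cells, which the CD45 sort removes, so the comparison reads how infiltrating cells differed between grafts and not an edit in those cells. Rnls itself was not analysed here. In autoimmune diabetes, CD4 and CD8 T cells recognize beta cell antigens, and macrophages, monocytes and dendritic cells present those antigens on MHC class I and class II molecules and set the local cytokine milieu. Activated T cells and inflammatory macrophages raise glycolysis, the breakdown of glucose to pyruvate and lactate, and the hypoxia-inducible factor HIF-1 drives many glycolysis genes together with genes such as Vegfa and Bnip3.

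The grafts held 6596553 to 9050760 UMIs (unique molecular identifiers, each counting 1 captured RNA molecule), and no cell held fewer than 1001. Counts were summed per graft within each deposited cell type with at least 10 cells and the genotypes were compared in edgeR with a quasi-likelihood test. The 8 types described here, from which NK cells and ILC-1 were set apart, held 12963 cells. These were 3491 CD4 T cells, 2873 CD8 T cells, 347 regulatory T cells (Treg), 2339 macrophages, 2095 monocytes, 825 dendritic cells (DC), 242 granulocytes and 751 cells labelled Stem-Progenitor. For each of the first 7 labels, every defining marker listed stood above its level in the remaining cells. The cells labelled Stem-Progenitor did not match that label: the progenitor genes Kit and Cd34 reached 4.9 and 0.114 CPM (counts per 1000000 UMIs) against 16.4 and 0.311 CPM in the rest. Instead, 79.5% of these cells held a UMI of the proliferation gene Mki67 and 74.3% one of the T cell gene Cd3e, so they are named here by their label only. Genes typical of beta cells summed to 194 UMIs over all 8 grafts.

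The granulocyte share of infiltrating cells was larger in Rnls mut than in WT grafts. Their shares were 3.19%, 3.23%, 3.25% and 2.01% in the Rnls mut grafts and 0.963%, 0.356%, 0.574% and 0.751% in the WT grafts. The groups did not overlap, and the means were 2.92% ± 0.605 and 0.661% ± 0.258 (SD, n = 4 each), a ratio of 4.42. The two-sided exact permutation p was 0.0286, the smallest that 4 against 4 grafts allow, and 0.343 after Benjamini-Hochberg adjustment over the 12 annotated types. Over all CD45+ cells, the summed level of the granulocyte genes listed was 457 to 896 CPM in Rnls mut and 206 to 411 in WT grafts, without overlap. This sum includes the RNA of the labelled granulocytes and the markers of that label, so it is not independent of their share. In such shares, a gain of 1 type lowers the others, and no absolute cell numbers were analysed here.

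**Figure D1:**
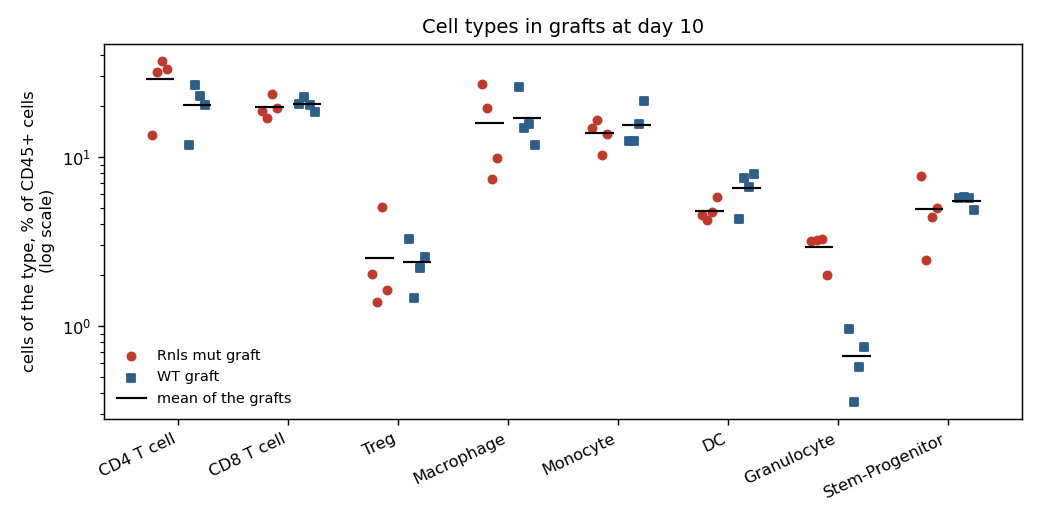
Share of the CD45+ cells of each graft (percent, logarithmic axis) that carried each of the 8 cell type labels at day 10, for Rnls mut and WT grafts, with 1 point per graft and a line at the mean. Granulocytes are the type whose groups do not overlap, at 2.01% to 3.25% against 0.356% to 0.963%, whereas CD4 T cells and macrophages vary more within a genotype than between them.

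Shares of the other types overlapped between the genotypes. CD4 T cells made up 13.5%, 32%, 37% and 33.4% of the cells of Rnls mut grafts and 11.8%, 26.8%, 22.9% and 20.2% of those of WT grafts (exact permutation p = 0.229). Graft 1 was lowest in both genotypes. Macrophages made up 26.9%, 19.5%, 7.41% and 9.84% against 25.8%, 14.8%, 15.7% and 11.7% (exact permutation p = 0.857), and graft 1 was the highest of its genotype each time. DC, the professional antigen-presenting cells, averaged 4.82% and 6.58% (exact permutation p = 0.114), and CD8 T cells, monocytes, Treg and the cells labelled Stem-Progenitor had exact permutation p-values of 0.6 to 0.914. Of 23 clusters compared as a share of their own type, 1 did not overlap, the CD8 T cell cluster with Ccl5, Gzmk and Fasl among its leading genes. It held 24.7%, 26.7%, 25.5% and 27.7% of the CD8 T cells of Rnls mut grafts and 29.9%, 31.8%, 34.9% and 29.3% of those of WT grafts (exact permutation p = 0.0286, adjusted p = 0.657).

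Over all CD45+ cells, 9 of 12560 genes fell (0.0717%) and 1 rose (0.00796%) in Rnls mut grafts at an adjusted p under 0.05. Leaving out any 1 graft other than Rnls mut graft 2 left 4 to 6 calls, and the gene that rose, Yipf4, lost the call in 13 of 15 alternatives. Single gene calls were therefore few, and the gene groups are described by their counts and medians beside those of all genes tested, without a test of the group. The median of the listed glycolysis genes lay above that of all genes tested in each of the 8 cell types, while no member passed the test in any type. In CD4 T cells, 16 of 18 measured members lay above 0, with a median log2 difference of 0.42 against 0.00 for all genes. The CD8 T cell median was 0.53, with 13 of 16 members above 0. In macrophages 16 of 19 members lay above 0 (median 0.41), in monocytes 12 of 17 (0.28), in DC 13 of 15 (0.27), in Treg 8 of 11 (0.45) and in the cells labelled Stem-Progenitor 15 of 17 (0.33). The medians of all genes tested in these types lay between -0.01 and 0.02. In granulocytes 5 of 9 members lay above 0, the lowest share of the 8 types, with a median of 0.34 against 0.06 for all genes.

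Several glycolysis enzymes were separated between the genotypes graft by graft. In CD4 T cells every Rnls mut graft exceeded every WT graft for 8 of the 18 members (44.4%), where 3.54% of all genes tested did so. Gapdh, the glyceraldehyde phosphate dehydrogenase, reached 1520, 1660, 1570 and 1560 CPM in CD4 T cells of Rnls mut grafts and 1260, 1300, 1070 and 1160 CPM in those of WT grafts. Its log2 difference was 0.40 ± 0.26 (SE) with an adjusted p of 0.732. Pgk1, the phosphoglycerate kinase, reached 370, 428, 383 and 400 CPM against 277, 322, 275 and 259 CPM (log2 difference 0.48 ± 0.33, adjusted p = 0.753). Both genes were thus separated without a call in the model, which estimates the spread over the day 10 and day 17 grafts together. With day 10 fitted alone, 14 of 8115 genes rose in CD4 T cells (0.173%), among them Gapdh, Pgk1 and the phosphoglycerate mutase Pgam1.

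The same direction was wider in CD8 T cells. There, 8 of 16 members did not overlap (50%), against 2.95% of all genes tested. Tpi1, the triose phosphate isomerase, reached 140, 131, 225 and 109 CPM in Rnls mut grafts and 80.4, 87.2, 26.4 and 58.9 CPM in WT grafts. Aldoa, an aldolase, reached 805, 900, 1150 and 694 CPM against 622, 575, 342 and 447 CPM. Rnls mut graft 3 was highest and WT graft 3 lowest for both enzymes, and the genotypes were separated by the remaining grafts as well. The log2 differences were 1.25 ± 0.36 for Tpi1 and 0.84 ± 0.29 for Aldoa, with adjusted p-values of 0.173 and 0.366. Ldha, the lactate dehydrogenase subunit, reached 486, 521, 644 and 515 CPM against 367, 433, 404 and 405 CPM (log2 difference 0.43 ± 0.24, adjusted p = 0.673). With day 10 alone, 17 of 7035 genes rose in CD8 T cells (0.242%), and 9 of them belonged to the 17 glycolysis genes tested there. Gapdh and other glycolysis genes have processed pseudogenes that can share reads, so their levels also depend on how such reads were assigned.

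Hexokinase 2 (Hk2), which phosphorylates glucose at the entry of glycolysis, stood on the other side. Its log2 difference was below 0 in CD4 T cells (-0.47), CD8 T cells (-0.24), macrophages (-0.19), monocytes (-0.28), DC (-0.44) and the cells labelled Stem-Progenitor (-0.75). In the last of these the groups did not overlap, with 88.4, 98.6, 70.8 and 120 CPM in Rnls mut and 134, 172, 181 and 147 CPM in WT grafts (adjusted p = 0.103).

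**Figure D2:**
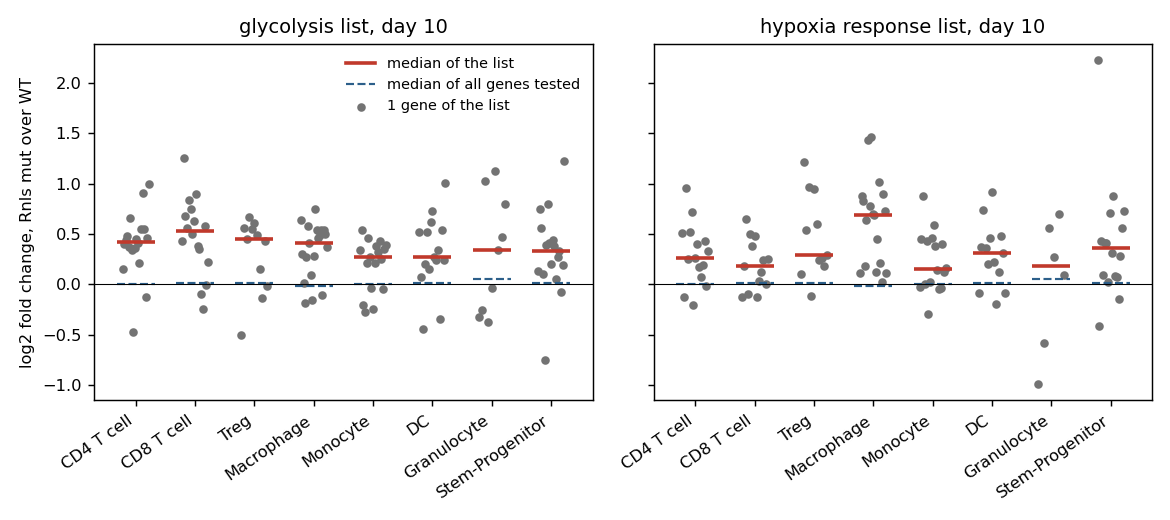
Log2 difference (Rnls mut minus WT) of each glycolysis and hypoxia response gene tested at day 10, by cell type, with 1 point per gene, the median of the list in red and the median of all genes tested as a blue dashed line. The glycolysis medians lie at 0.27 to 0.53 and the macrophage hypoxia median at 0.69, while the medians of all genes stay near 0.

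Genes of the hypoxia response showed their widest difference in macrophages, where all 18 members tested lay above 0 with a median log2 difference of 0.69. In 4 of the 18 (22.2%) every Rnls mut graft exceeded every WT graft, against 1.85% of all genes tested. Vegfa, a growth factor for blood vessels, reached 309, 241, 243 and 228 CPM in macrophages of Rnls mut grafts and 177, 169, 139 and 69.5 CPM in those of WT grafts. Hilpda, a lipid droplet protein, reached 447, 358, 342 and 296 CPM against 279, 195, 167 and 128 CPM. The other 2 were Bnip3, which acts in mitochondrial turnover (log2 difference 0.83 ± 0.35), and Egln3, an oxygen-sensing prolyl hydroxylase (1.43 ± 0.48). Adjusted p-values of the 4 genes ran from 0.526 to 0.681, so none was called.

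In the other types the hypoxia medians were smaller. They were 0.26 in CD4 T cells (12 of 15 members above 0), 0.18 in CD8 T cells (10 of 13), 0.29 in Treg (10 of 11), 0.15 in monocytes (12 of 16), 0.31 in DC (10 of 13), 0.19 in granulocytes (4 of 6) and 0.36 in the cells labelled Stem-Progenitor (14 of 16). Among monocytes, 4 of 16 members were separated (25%), against 1.35% of all genes, and these were Vegfa, Ero1l, Ndrg1 and Bnip3. One hypoxia gene passed the test in 1 type. Bnip3 rose in the cells labelled Stem-Progenitor from 8.27, 2.74, 6.75 and 4.94 CPM in WT grafts to 29.9, 42.3, 27.3 and 13.4 CPM in Rnls mut grafts (log2 difference 2.22 ± 0.38, edgeR adjusted p = 0.0353). It was the only gene that rose among the 9132 tested in these cells (0.011%), and 9 of 16 alternative analyses did not call it (adjusted p from 1.5e-06 to 0.178 over the 16).

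Because HIF-1 drives many of the glycolysis and hypoxia genes listed, a shared promoter motif describes the lists and not a difference between the genotypes. HIF-1 binds DNA at elements whose core reads ACGTG or GCGTG on either strand, and the palindrome CACGTG holds such a core on both strands. A core occurred within the 250 bases before a start site in 41.5% of 27025 mouse genes, in 17 of 19 glycolysis genes (89.5%) and in 17 of 17 hypoxia genes (100%), in promoter sequences from RefSeq (build GRCm38.p6). Short motifs recur by chance in GC-rich promoters, and a match is a description of the letters and not a bound site. Promoters without a core were not eligible for display, and Tpi1 is not among those shown. For some enzymes and hypoxia genes described here, the 60 bases with the most cores within those 250 are shown. These stretches have each core in capitals and are read 5′ to 3′ on the strand of the gene. They cover Pgk1 (chrX:106186950-106187009, plus strand), Ldha (chr7:46845744-46845803, plus strand), Aldoa (chr7:126799321-126799380, minus strand), Pkm (chr9:59657152-59657211, plus strand), Gapdh (chr6:125165774-125165833, minus strand) and Bnip3 (chr7:138909564-138909623, minus strand).
Pgk1: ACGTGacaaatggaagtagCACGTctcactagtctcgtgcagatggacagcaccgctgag
Ldha: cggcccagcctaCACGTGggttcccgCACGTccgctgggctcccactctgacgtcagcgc
Aldoa: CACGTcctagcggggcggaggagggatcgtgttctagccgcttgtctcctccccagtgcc
Pkm: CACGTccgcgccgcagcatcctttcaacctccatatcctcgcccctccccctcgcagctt
Gapdh: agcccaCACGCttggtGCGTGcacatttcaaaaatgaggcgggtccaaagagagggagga
Bnip3: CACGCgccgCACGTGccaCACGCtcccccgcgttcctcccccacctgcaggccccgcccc

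Genes of the respiratory chain had medians below 0. The 27 nuclear-encoded subunits listed had a median log2 difference of -0.13 in CD4 T cells (25 of 27 below 0), -0.10 in CD8 T cells (21 of 27), -0.05 in macrophages (20 of 27) and -0.11 in monocytes (22 of 27). Among the cells labelled Stem-Progenitor the median was -0.15, and every Rnls mut graft was below every WT graft for 10 of the 27 (37%), against 3.78% of all genes. The 13 subunits encoded in mitochondria had medians of -0.21 in CD4 T cells, -0.24 in CD8 T cells and -0.26 in macrophages, where the called members were mt-Atp8, and in CD4 T cells also mt-Nd2 and mt-Nd4l. Among CD4 T cells, 9 of the 13 mitochondrial genes (69.2%) were lower in every Rnls mut graft than in any WT graft, against 4.19% of all genes. The subunit gene mt-Nd2 reached 436, 404, 430 and 415 CPM there against 574, 581, 630 and 629 CPM (log2 difference -0.52, adjusted p = 0.023), a call lost in 5 of 17 alternatives. The call of mt-Nd4l was lost in 7 of 17 and that of mt-Atp8 in macrophages in 8 of 15, with adjusted p-values of up to 0.167 for either. Granulocytes had the lowest medians, -0.63 for the 7 nuclear genes tested and -1.27 for the 4 mitochondrial ones, and every one of these genes lay below 0 without a call. The nuclear genes Ndufb9, Cox5a and Cox8a were separated there, 3 of 7 (42.9%) against 5.29% of all genes.

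Macrophages differed between Rnls mut grafts more than between genotypes in the genes of resident, complement-producing cells. Of 9331 genes tested in macrophages, 3 fell (0.0322%) and none rose in Rnls mut grafts. The 3 were Gm10076, mt-Atp8 and Cmss1, which stood lower in many cell types and are described at the end. Of them 1 was called without any 1 of 5 grafts, namely Rnls mut graft 1 or 4 or WT graft 2, 3 or 4. Cmss1 lost the call in 10 of 16 alternatives. For the 18 listed genes of resident macrophages, the median log2 difference was -0.42 with 16 of 18 below 0. The complement gene C1qa reached 1070, 3090, 759 and 1370 CPM in Rnls mut grafts and 1940, 1490, 2500 and 1990 CPM in WT grafts. Rnls mut graft 2 was the highest of all 8, and the other 3 lay below every WT graft. C1qa is a leading gene of a macrophage cluster that made up 6.92%, 38.2%, 9.92% and 13.8% of the macrophages of Rnls mut grafts and 24.6%, 16.5%, 36.5% and 23.4% of those of WT grafts (exact permutation p = 0.371). Rnls mut graft 2 and WT graft 3 were the highest of their genotype for this cluster and for C1qa alike. The largest macrophage cluster, led by Inhba, Mmp12 and Nos2, averaged 67.9% and 51.5% (exact permutation p = 0.143). The part of this mix of clusters in the values over all macrophages was not tested. Folr2, a folate receptor of resident macrophages, had the same layout with 62.5, 325, 20.8 and 126 CPM against 212, 132, 250 and 243 CPM. The scavenger receptor Cd163 was the 1 member of the 18 (5.56%, against 2.83% of all genes) that did not overlap, at 1.29, 14.4, 2.45 and 3.63 CPM against 20.2, 36.6, 26.4 and 22.2 CPM. Its log2 difference was -2.17 ± 0.91 (SE) with an adjusted p of 0.666.

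**Figure D3:**
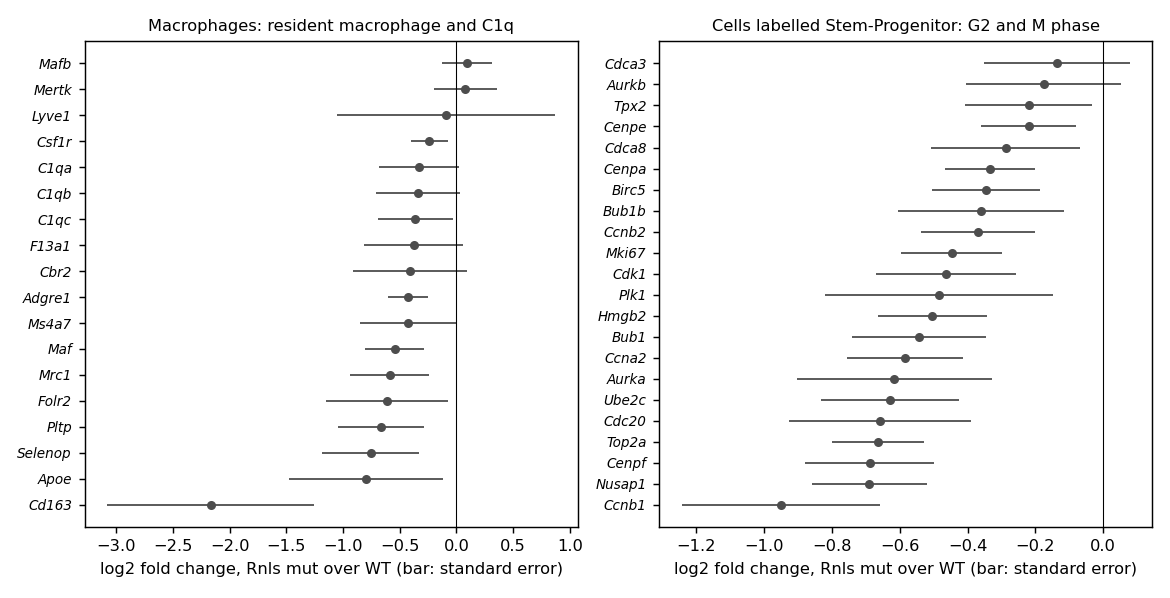
Log2 difference (Rnls mut minus WT) with its standard error for each gene of the resident macrophage list in macrophages and of the G2 and M phase list in the cells labelled Stem-Progenitor, at day 10. Most points lie below 0 in both panels, 16 of 18 in macrophages and 22 of 22 in the cells labelled Stem-Progenitor, with wider error bars in macrophages.

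Inflammatory and alternatively activated macrophage genes stood on either side of 0. Arg1, which breaks down arginine, reached 240, 95.8, 228 and 114 CPM in Rnls mut and 121, 38.4, 9.99 and 64.2 CPM in WT grafts (log2 difference 1.50 ± 0.90, adjusted p = 0.775). The groups overlapped through WT graft 1. Of 16 inflammatory cytokine genes, 13 lay above 0 (median 0.31), and Il1b had a log2 difference of 0.58 ± 0.32 with overlapping grafts. Cd274, which encodes PD-L1, differed by 0.18 ± 0.22, the interferon-induced chemokine gene Cxcl9 by -0.36 ± 0.35 and Tgfb1 by 0.14 ± 0.16, and each of the 3 overlapped. The granulocyte genes listed also summed higher in macrophages, to 417 to 666 CPM in Rnls mut grafts and 277 to 397 in WT grafts, without overlap. The granulocyte share was also higher in Rnls mut grafts, and its part in the cytokine values was not tested.

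Among monocytes 0 of 8092 genes were called by edgeR (0%), 199 had an unadjusted p under 0.05, and DESeq2 called 12. The gene most clearly separated by value among those examined was Osm (chr11:4236420-4241026, plus strand), which encodes the cytokine oncostatin M. It reached 92.5, 94.3, 89.4 and 90.8 CPM in Rnls mut grafts and 43.2, 46.6, 56.5 and 48.3 CPM in WT grafts. All 4 Rnls mut grafts lay above the WT grafts, with a log2 difference of 0.91 ± 0.25 and an adjusted p of 1. Osm was called higher when day 10 was fitted alone. Tgfb1, whose product restrains T cells and macrophages, reached 263, 241, 211 and 298 CPM against 199, 169, 189 and 206 CPM (log2 difference 0.41 ± 0.19, adjusted p = 1). The glucose transporter gene Slc2a1 reached 111, 120, 108 and 101 CPM against 68.4, 77.9, 79.1 and 76 CPM (log2 difference 0.54 ± 0.24, adjusted p = 1). All 3 genes were thus separated without a call over all genes. Of all genes tested in monocytes, 1.35% were separated upward. Slc2a1 was the 1 separated member of 17 glycolysis genes (5.88%). Osm and Tgfb1 belonged to the inflammatory cytokine list, where 3 of 12 genes were separated upward (25%). For Tgfb1 the nearest grafts of the genotypes lay at 211 and 206 CPM. The 7 listed granulocyte genes tested in monocytes all lay above 0 (median 0.26), against 51.5% of all genes. The part of the larger granulocyte share in the monocyte values was not tested. Cd274, H2-Aa, Cxcl10, Il1b and the monocyte marker Ly6c2 overlapped, with log2 differences of 0.18, -0.21, -0.28, 0.27 and 0.03.

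Dendritic cells showed 1 gene that fell, Gm10076, among 5700 tested (0.0175%), and none that rose. Gm10076 was not called without Rnls mut graft 2 or WT graft 3. The lineage markers listed were evenly divided, with 10 of 21 above 0 and a median of -0.00. Of 10 MHC class II genes 9 lay below 0 with a median of -0.07, and of 14 MHC class I genes 10 lay above 0 with a median of 0.10, without a call in either list. Among the class I genes 4 of 14 (28.6%) were higher in every Rnls mut graft, against 2.21% of all genes, and these were the heavy chain gene H2-D1, the peptide transporter genes Tap1 and Tap2 and the immunoproteasome gene Psmb9. Tap2 reached 286, 238, 188 and 261 CPM in Rnls mut grafts and 128, 169, 165 and 139 CPM in WT grafts (log2 difference 0.68, adjusted p = 0.642). H2-Aa, an MHC class II chain, reached 5720, 7070, 8550 and 7850 CPM in DC of Rnls mut grafts and 7470, 7240, 7210 and 7790 CPM in those of WT grafts (log2 difference -0.03 ± 0.12). The checkpoint ligand gene Cd274 reached 816, 575, 360 and 777 CPM against 582, 510, 589 and 368 CPM (0.30 ± 0.36), and Rnls mut graft 3 was the lowest of all 8. Among the glycolysis genes 3 of 15 did not overlap (20%), and these were Slc2a1, Pkm and Aldoa. Listed G2 and M phase genes lay below 0 for 7 of 8 members (median -0.88), without a call.

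Granulocytes of Rnls mut grafts had lower levels of MHC class II genes, in small pools of cells. These cells, which carry neutrophil genes such as S100a8, numbered 53, 49, 53 and 37 in the Rnls mut grafts. WT grafts 1, 3 and 4 held only 18, 11 and 14, and WT graft 2 with 7 granulocytes was left out. H2-Aa reached 173, 156, 53.1 and 54.9 CPM in the 4 Rnls mut grafts and 1560, 370 and 2610 CPM in WT grafts 1, 3 and 4, from 9, 8, 3 and 2 UMIs against 33, 4 and 46. H2-Ab1, its partner chain, reached 96.1, 136, 70.8 and 220 CPM against 1460, 370 and 2270 CPM. H2-Eb1, a further class II chain, reached 115, 97.2, 88.5 and 137 CPM against 1130, 462 and 1810 CPM. For these 3 genes the groups did not overlap, and WT graft 3 was the lowest WT graft each time. The log2 differences were -3.79 ± 0.49, -3.49 ± 0.46 and -3.42 ± 0.42 with edgeR adjusted p-values of 7.99e-05 to 8.01e-05.

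In all, 9 of 927 genes fell in granulocytes (0.971%) and none rose. Of the 10 class II genes listed, 4 passed the count filter, and these 4 were among those that fell. The filter can keep a gene through the grafts in which it is high, so this count is no separate evidence. The fourth class II gene was Cd74, the invariant chain that escorts class II molecules, at 769, 505, 761 and 686 CPM against 3720, 740 and 6580 CPM (log2 difference -2.47 ± 0.43, adjusted p = 0.00305). Here the groups overlapped, and without WT graft 4 the difference was -1.81 with an adjusted p of 0.0624 (range over the 14 alternatives 4.41e-06 to 0.105). Lyz2, the lysozyme of myeloid cells, fell from 2070, 2680 and 10000 CPM to 1580, 1710, 1650 and 1210 CPM (log2 difference -1.69 ± 0.40, adjusted p = 0.0449), a call lost in 8 of 14 alternatives. Without WT graft 4, its highest, the difference was -0.59 with an adjusted p of 0.618. Without WT graft 3, 25 genes were called in granulocytes, and 4 without Rnls mut graft 1, 3 or 4 or WT graft 4 and 5 without Rnls mut graft 2. Prdx1, Rps29 and Crip1 were also among those that fell, with the call lost in 6 of 11 alternatives for Prdx1 and 7 of 13 for Rps29, and the 24 ribosomal protein genes tested all lay below 0 with a median of -0.86. Neutrophil genes did not follow. The 15 listed granulocyte genes tested had a median of 0.04, S100a8 had a log2 difference of -0.00 ± 0.29, and Il1b, Cxcr2 and Osm had differences of 0.52, 0.50 and 0.93 with overlapping grafts. Class II transcripts are abundant in macrophages and DC of the same libraries and were also lower in T cells of Rnls mut grafts, and the part of such neighbouring RNA in the granulocyte values was not tested.

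CD4 T cells showed 18 genes that fell and none that rose among 7858 tested (0.229%), and in CD8 T cells 19 of 6379 fell (0.298%) and 1 rose (0.0157%). Without scaling by TMM (trimmed mean of M values), 4 rose and 17 fell in CD4 and 7 rose and 19 fell in CD8 T cells, and with DESeq2 7 rose and 54 fell in CD4 T cells. In CD4 T cells the MHC class II genes H2-Eb1, H2-Aa, H2-Ab1 and Cd74 fell, 4 of 5 tested, and with them Lyz2, Apoe, Retnla, Ccl8 and Tyrobp, which macrophages express. The 3 class II chain genes lie within the MHC on chromosome 17, H2-Aa at chr17:34282744-34287823. Lyz2 reached 53, 58.9, 72.1 and 85.9 CPM in CD4 T cells of Rnls mut grafts and 138, 145, 139 and 164 CPM in those of WT grafts (log2 difference -1.09 ± 0.16, adjusted p = 0.000521). H2-Aa reached 38.6, 28.2, 30.1 and 37.8 CPM against 65.5, 78.5, 72 and 90.2 CPM (log2 difference -1.21 ± 0.15, adjusted p = 0.000175). The CD8 T cells gave like values, for example for Cd74 with 75.2, 56.4, 60.3 and 68.9 CPM against 139, 145, 152 and 160 CPM (log2 difference -1.18 ± 0.14, adjusted p = 3.24e-05). The 2 groups did not overlap for any of these genes.

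**Figure D4:**
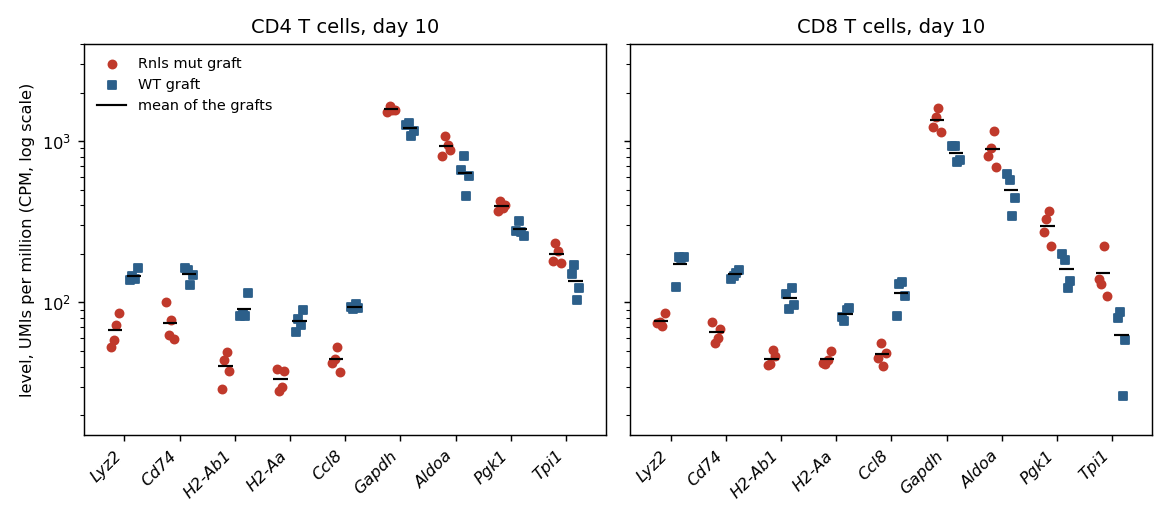
Level in CPM (logarithmic axis) of 5 myeloid or class II genes (Lyz2, Cd74, H2-Ab1, H2-Aa, Ccl8) and 4 glycolysis genes (Gapdh, Aldoa, Pgk1, Tpi1) in CD4 and CD8 T cells of each graft at day 10, with 1 point per graft and a line at the mean. Rnls mut grafts lie below WT grafts for the first 5 genes and above them for the other 4, as for Cd74 in CD8 T cells at 56.4 to 75.2 against 139 to 160 CPM.

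These myeloid transcripts were also counted in NK cells, which do not make lysozyme. In plain CPM, without TMM scaling, Lyz2 averaged 137 in CD4 T cells, 159 in CD8 T cells and 195 in NK cells of WT grafts. Among the called myeloid genes, those with a higher WT level in T than in NK cells were Apoe (12.3 against 9.36 CPM), Retnla (7.86 against 6.45 CPM) and Ccl6 (25.9 against 23.1 CPM), each in CD8 T cells. A Lyz2 UMI was found in 19% ± 2.2 of CD4 T cells of Rnls mut and 34.5% ± 1.25 of those of WT grafts (SD, n = 4), and in 20% ± 5.46 and 37.5% ± 4.01 of NK cells. With every cell thinned to 1000 UMIs, the shares were 7.03% and 14.7% in CD4 T cells, 7.79% and 16.5% in CD8 T cells and 8.98% and 19.3% in NK cells (exact permutation p = 0.0286 each). The T cell gene Cd3e, thinned alike, was also lower in Rnls mut grafts, by a smaller ratio. It was found in 56.8% and 62.8% of CD4 T cells (exact permutation p = 0.0857). In CD8 T cells the shares were 58.6% and 65.1% (exact permutation p = 0.0286). Median depths were 2998 and 2695.5 UMIs per cell in CD4 T cells, 2748 and 2409 in CD8 T cells and 2527.5 and 2193 in NK cells. The Lyz2 shares of T cells did not exceed those of NK cells, and whether T cells express Lyz2 was not tested. Cells with at least 2 UMIs of both T cell and myeloid marker sets were also fewer in Rnls mut grafts, at 7.29% ± 2.13 against 17.9% ± 1.94 of CD4 T cells and 6.23% ± 1.83 against 17% ± 3.21 of CD8 T cells. The myeloid set holds Lyz2, C1qa, Fcer1g and Tyrobp, each called lower in CD4 or CD8 T cells, so leaving out such cells selects on called genes. Without these cells, 14 of the 18 calls in CD4 and 14 of the 20 calls in CD8 T cells were kept. In CD8 T cells 12 genes then rose and 15 fell, against 1 and 19 with all cells, while in CD4 T cells 14 fell and none rose. The part of free RNA in these values was not tested. Of the genes that fell, 9 of 18 in CD4 and 11 of 19 in CD8 T cells had a WT level under 5% of that in WT macrophages. In macrophages, monocytes and DC themselves, the class II lists had medians of -0.17, -0.13 and -0.07, and no class II gene was called.

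The immediate early genes are induced within minutes of receptor signals and also by tissue digestion. They lay above 0 for 19 of 19 members in CD4 T cells (median 0.32), 12 of 18 in CD8 T cells (0.14) and 12 of 14 in Treg (0.44). None was called in the model of both days. With day 10 fitted alone, 1 was called higher in CD4 and 2 in CD8 T cells. Separated upward were 5 of 19 in CD4 T cells (26.3%, against 3.54% of all genes). In CD8 T cells 1 of 18 was separated (5.56%, against 2.95%) and in Treg 1 of 14 (7.14%, against 2.75%). The clearest immediate early gene was Jun, with 127, 115, 121 and 94.1 CPM against 69.6, 70.2, 50.5 and 70.5 CPM in CD4 T cells (log2 difference 0.80 ± 0.20, adjusted p = 0.114).

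Genes of the effector, inhibitory and memory programs of T cells had medians close to 0. Listed effector and cytotoxic genes had medians of 0.10 in CD4 T cells (14 of 19 above 0) and 0.01 in CD8 T cells (10 of 20). Inhibitory receptor genes had medians of -0.11 and -0.03, and memory and trafficking genes of -0.13 and -0.04. None of these genes was called in the model of both days. With day 10 fitted alone, 1 memory and trafficking gene was called higher in CD4 and 1 in CD8 T cells. Separated upward were 2 of 19 effector genes in CD4 T cells (10.5%, against 3.54% of all genes). In CD8 T cells they were 2 of 20 (10%, against 2.95%). Ifng, the main effector cytokine gene, reached 1560, 976, 634 and 979 CPM in CD4 T cells of Rnls mut and 1740, 533, 1060 and 799 CPM in those of WT grafts (log2 difference 0.01 ± 0.44). In CD8 T cells Ifng differed by 0.05 ± 0.24, the granzyme gene Gzmb by 0.20 ± 0.25 and Pdcd1, which encodes PD-1, by -0.12 ± 0.28. Tgfb1 differed by 0.28 ± 0.11 in CD4 and 0.35 ± 0.13 in CD8 T cells, with adjusted p-values of 0.41 and 0.402. These values of Ifng, Gzmb, Pdcd1 and Tgfb1 all overlapped between the groups. Tcf7, a transcription factor of memory and stem-like T cells, did not overlap in CD4 T cells, with 63.9, 57, 39.8 and 64.4 CPM against 80.8, 85, 71.2 and 65.8 CPM (log2 difference -0.44 ± 0.28, adjusted p = 0.731), and overlapped in CD8 T cells (-0.04 ± 0.23).

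Regulatory T cells were few, at 21 to 82 per graft, and 3 of 2331 genes fell (0.129%) while 1 rose (0.0429%). The gene that rose was Ltb, which encodes lymphotoxin beta, a membrane cytokine that organizes lymphoid tissue. It reached 3040, 2860, 1970 and 1650 CPM in Rnls mut grafts and 1300, 1420, 1070 and 1240 CPM in WT grafts. The groups did not overlap (log2 difference 0.91 ± 0.17, adjusted p = 0.0118), and 6 of 16 alternatives lost the call. No gene was called without Rnls mut graft 1 or 2 or without WT graft 3. The 3 that fell were Rpl35, Rps29 and Gm10076, with log2 differences of -0.77, -0.50 and -0.82. These calls were lost in 4, 11 and 12 of 15 alternatives, and that of Gm10076 with any 1 graft left out. Foxp3, the lineage factor, reached 490, 403, 325 and 273 CPM against 399, 371, 412 and 363 CPM (log2 difference -0.08 ± 0.22), and Ctla4 differed by -0.03 ± 0.16.

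The cells labelled Stem-Progenitor, which carried cell cycle genes beside T cell genes, showed a lower level of the histone gene Hist1h2ap in Rnls mut grafts and a median below 0 for genes of the G2 and M phases. Of 9132 genes, 4 fell (0.0438%), namely Hist1h2ap, Gm10076, Sema3c and Lyz2. Without WT graft 1, 148 genes rose and 68 fell, 29 were called without Rnls mut graft 4, and 2 were called without any 1 of 5 other grafts. Sema3c lost the call in 10 of 16 alternatives and Lyz2 in 10 of 17. Hist1h2ap, a replication-dependent histone gene, reached 273, 296, 237 and 348 CPM in Rnls mut grafts and 571, 605, 626 and 810 CPM in WT grafts (log2 difference -1.18 ± 0.14, adjusted p = 0.00137), and 16 of 17 alternatives called it. Histone genes of this family are near-identical copies, so its level depends on how shared reads were assigned. All 22 G2 and M phase genes tested lay below 0 with a median of -0.47 against 0.02 for all genes, none was called, and 2 were separated (9.09%, against 3.78% of all genes). Top2a, the topoisomerase of dividing cells, reached 605, 639, 801 and 830 CPM against 901, 1150, 1150 and 1360 CPM, without overlap (log2 difference -0.66 ± 0.14, adjusted p = 0.0918). Among S phase genes 18 of 20 lay below 0 with a smaller median of -0.14, and Pcna, the replication clamp, was level at 0.00 ± 0.13.

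A pair of clusters, of 579 and 172 cells, carried the Stem-Progenitor label, and their mix varied between grafts. The smaller, led by the granzyme genes Gzmd, Gzme and Gzmc, made up 55.8%, 21.6%, 19.4% and 20.7% of these cells in Rnls mut grafts and 37.4%, 7.89%, 3.67% and 6.59% in WT grafts (exact permutation p = 0.314). Graft 1 of either genotype was the highest of its group. The larger cluster, with Hist1h2ap and Top2a among its leading genes, averaged 70.6% of these cells in Rnls mut and 86.1% in WT grafts. Within the larger cluster alone, an analysis chosen after seeing the data, the log2 difference of Hist1h2ap was -0.88 (adjusted p = 0.00459), that of Top2a -0.40 (adjusted p = 0.11) and the median of the G2 and M phase genes -0.22. Of the glycolysis genes in these cells, 5 of 17 were separated upward (29.4%), against 2.42% of all genes. These were Pgk1, Pgam1, Gpi1, Pfkp and Pfkl. The largest log2 difference among the 5 was that of the phosphofructokinase gene Pfkl, with 30.4, 36.6, 41 and 31.2 CPM in Rnls mut and 23.9, 19.2, 18.3 and 16.1 CPM in WT grafts (0.80 ± 0.21, adjusted p = 0.166).

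A few transcripts were lower across cell types that share little else. Gm10076, annotated as a noncoding RNA gene at chr14:105681828-105682211 on the plus strand, fell in 6 of the 8 types, and no other gene was called lower in as many. Its call in Treg was lost in 12 of 15 alternatives (adjusted p up to 0.27). In macrophages it reached 229, 250, 243 and 271 CPM in Rnls mut grafts and 424, 498, 452 and 530 CPM in WT grafts (log2 difference -0.94 ± 0.12, adjusted p = 0.00243). The ratio of mean levels was 0.564 in CD4 T cells, 0.613 in CD8 T cells, 0.576 in Treg, 0.533 in macrophages, 0.571 in monocytes, 0.463 in DC, 0.599 in the cells labelled Stem-Progenitor and 0.579 in NK cells. Granulocytes, where Gm10076 was not called, had a ratio of 0.285 with overlapping grafts. Of its 25-base stretches, 85.8% also occur in Rpl41, a ribosomal protein gene on chromosome 10 with an identical run of 150 bases, so its reads can be split between the genes. Rpl41 itself had ratios of 0.808 to 1.01 over these types.

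Other transcripts of this kind were mt-Atp8, a subunit gene of the mitochondrial ATP synthase, Sema3c, which encodes a secreted semaphorin, and Cmss1, a nuclear gene. Ratios for mt-Atp8 lay between 0.472 and 0.618 in the types other than granulocytes, where it was 0.0795. For Sema3c they lay between 0.298 and 0.522, and for Cmss1 between 0.477 and 0.798, over the 8 types and NK cells. In CD4 T cells, Sema3c reached 22.9, 22.1, 24.7 and 24.5 CPM in Rnls mut and 48.8, 48.3, 59.7 and 52.6 CPM in WT grafts (log2 difference -1.14 ± 0.15, adjusted p = 0.00022). The ratios were thus of like size in T cells, NK cells and myeloid cells, and library and genotype cannot be told apart.

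**Figure D5:**
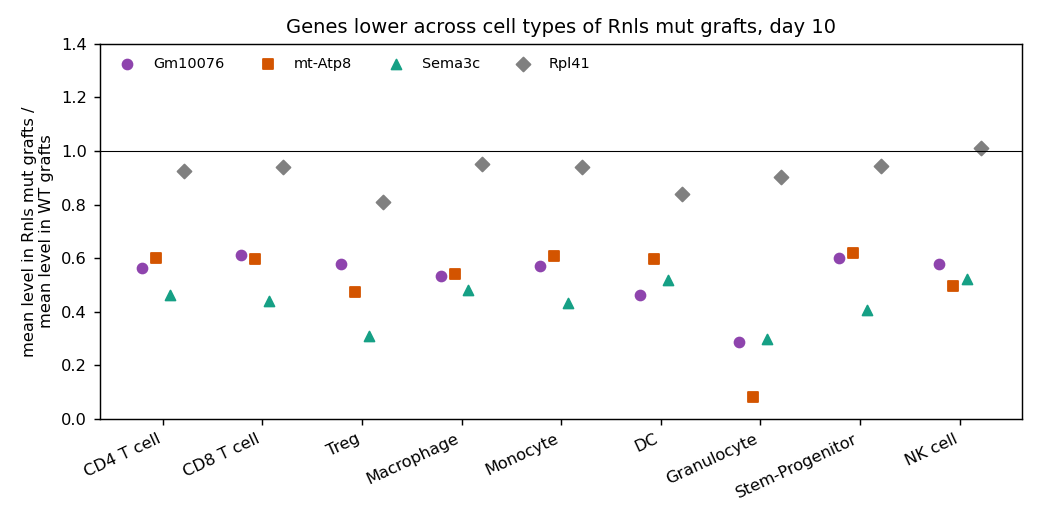
Ratio of the mean level in Rnls mut grafts to that in WT grafts at day 10 for Gm10076, mt-Atp8, Sema3c and Rpl41 in the 8 cell types and in NK cells, with 1 point per type. The first 3 lie below 1 in every type, for example 0.463 to 0.613 for Gm10076 outside granulocytes, while Rpl41 lies at 0.808 to 1.01.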

How the data were processed

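The authors deposited raw counts of UMIs per gene and cell, with a table that gives each cell its library, graft, cluster and cell type. Per the labels, cells were captured with the 10x 3′ v3.1 chemistry, and the submitters' processing notes name Cell Ranger and the mm10 build. How hashtags were assigned and cells filtered is not given in the sources used here. The 32285 genes, 29 clusters and 12 cell types were used as deposited.

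Counts were summed per graft and type (at least 10 cells), filtered with filterByExpr, scaled by TMM and tested with edgeR 4.0.16 (quasi-likelihood test, limma 3.58.1, R 4.3.3) in 1 model of 4 groups, genotype by day, with the contrast Rnls mut minus WT at day 10. P-values were Benjamini-Hochberg adjusted over all genes tested in a type, with a threshold of 0.05. Levels of single genes per graft are TMM-scaled CPM. Summed levels of lists, and mean levels and ratios compared across types, are of plain CPM. Shares and single values were compared with two-sided exact permutation tests over grafts, of which 4 against 3 allow no p below 0.0571. Nothing in the labels says that a hashtag number marks a mouse, so grafts were not paired.

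Summed depth per graft ran from 707672 to 2066137 UMIs in CD4 and CD8 T cells, from 61456 in Treg, from 384268 to 2667452 in macrophages, monocytes and DC, from 366883 in the cells labelled Stem-Progenitor, and from 9181 to 74642 in granulocytes, whose values are therefore the least precise. On simulated data with known changes, a log2 change of 1 was recovered for 80.6% of genes in CD4 T cells, 89.1% in CD8 T cells, 66.7% in Treg, 63.8% in macrophages, 57% in monocytes, 39.9% in DC, 20.5% in granulocytes and 51.1% in the cells labelled Stem-Progenitor. No doublet caller was run. Instead, the 1500 cells (10.5%) with at least 2 UMIs of both a T cell and a myeloid marker set were left out in an alternative. The myeloid set holds Fcer1g and Tyrobp, which NK cells of WT grafts also carried (864 and 1220 CPM). On average 34.6% of NK cells of Rnls mut and 32.2% of those of WT grafts met the rule. It is therefore not a count of doublets. Shares of cells with a UMI were repeated with cells thinned to 1000 UMIs.

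The cells, gene lists and tests were chosen with earlier results of these data known. Genes were named where they were among the 5 strongest called per direction and type, the 3 strongest called of a list per direction, called in 4 or more types, or part of a panel of cytokine, checkpoint and metabolic genes. List members whose grafts did not overlap, and the marker and cell cycle genes given as examples, were chosen after their values were seen. Gene positions are from GENCODE and promoters from RefSeq, both on GRCm38. Alternatives were DESeq2 1.42.0, no TMM, no filter, 20 cells per graft, day 10 alone, a replicate block, each graft left out, mixed cells left out, and mitochondrial, ribosomal and Gm genes left out. Tables were handled in Python 3.11.15 (NumPy 2.4.6, pandas 2.3.3, SciPy 1.17.1). The day 17 grafts entered the model only. Some genes that the rule names are not reported here.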

Additional observations from a re-analysis of the deposited data

Results flagged for a closer look

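In CD4 T cells, the log2 difference between Rnls mut and WT grafts at day 10 minus that at day 17 passed the edgeR test of the difference between days for 11 of the genes named. It was -3.26 for H2-Aa, -3.12 for H2-Eb1, -2.45 for Cd74, -2.85 for Lyz2, -3.64 for Ccl8, -3.82 for Apoe and -4.41 for Retnla, all class II or myeloid genes. It was -1.40 for Gm10076, -1.42 for Sema3c, -1.14 for mt-Atp8 and -0.78 for mt-Nd4l. The day 17 grafts come from other libraries, so the day and the pair of libraries cannot be told apart. Each value exceeded in size the day 10 difference, -1.21 for H2-Aa, so the sign at day 17 was the opposite. These genes were named because they were called at day 10. The same day 10 values enter the difference between days, so a large one is favored by the choice.

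CD8 T cells gave the same kind of value for 12 genes. The difference between days was -2.32 for Cd74, -3.45 for H2-Ab1, -2.96 for H2-Aa, -3.87 for Ccl8, -3.31 for Ccl6, -4.12 for Apoe, -3.11 for C1qa, -4.95 for Retnla and -2.60 for Lyz2. It was -1.42 for Gm10076, -1.57 for Cmss1 and -1.06 for mt-Atp8. Among Treg it was 1.47 for Ltb, the gene that rose, and -1.40 for Rpl35, -1.41 for Gm10076, -1.07 for Rps29 and -2.82 for Lyz2.

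Among myeloid cells the difference between days was -1.46 for Gm10076 and -1.29 for Cmss1 in macrophages and -1.62 for Gm10076 in DC. In granulocytes it was -4.74 for H2-Eb1, -4.78 for H2-Aa, -5.07 for H2-Ab1 and -2.15 for Rps29.

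Of 203 groups of 4 grafts, 6 held a graft set far from the other 3 by Dixon's test, fewer than the share of groups such a test marks by chance. These were the granulocyte share of 2.01% in Rnls mut graft 4, the share of 4.88% for the Stem-Progenitor label in WT graft 4, 124 CPM of Lyz2 in CD8 T cells of WT graft 1, 855 CPM of Lyz2 in DC of WT graft 4, and 473 CPM of Il1b and 915 CPM of Ldha in monocytes of Rnls mut graft 3.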

How the results depend on the processing

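Of 1676 recomputed values of named genes, 1479 kept their direction and side of the threshold, 164 lost the call, 13 gained one and 20 uncalled values moved, and of 268 recomputed list medians 262 moved by less than the spread between grafts. Counts of called genes moved more. In CD4 T cells the 18 calls became 61 with DESeq2, 86 with no filter, 72 with day 10 alone, 45 with the replicate block, 11 without mitochondrial, ribosomal and Gm genes and 13 to 18 with a graft left out. In CD8 T cells the 20 calls became 50 with DESeq2, 79 with no filter, 42 with 20 cells per graft, 50 with day 10 alone, 65 with the replicate block and 15 to 24 with a graft left out. Chosen after seeing the data, day 10 alone with the replicate block gave 194 and 116 calls in CD4 and CD8 T cells, and day 10 alone without mixed cells 62 and 39. In Treg the 4 calls became 2 with DESeq2, 2 without TMM (1 higher, 1 lower), 16 with no filter, 11 with 20 cells, 0 without mitochondrial, ribosomal and Gm genes, 1 without mixed cells and 0 to 6 with a graft left out. In macrophages the 3 calls became 22 with DESeq2, 12 with no filter, 1 with day 10 alone, 0 with the replicate block, 0 without those genes and 1 to 3 with a graft left out. Monocytes went from 0 to 12 with DESeq2, 19 with no filter and 2 with day 10 alone. In DC the 1 call became 11 with DESeq2, 37 with no filter, 2 with 20 cells, 0 without those genes and 0 to 1 with a graft left out. In granulocytes the 9 calls became 5 with DESeq2 (whose median of all genes was -0.25), 24 with no filter, 3 with the replicate block and 4 to 25 with a graft left out, and no WT graft of day 10 kept 20 cells, so that alternative was not run. In the cells labelled Stem-Progenitor the 5 calls became 87 with DESeq2, 323 with no filter, 3 with 20 cells, 3 with day 10 alone, 156 with the replicate block, 2 without mixed cells, 8 in the larger cluster alone (chosen after seeing the data) and 2 to 216 with a graft left out. Over all CD45+ cells the 10 calls became 88 with DESeq2, 6 without TMM, 6 with no filter, 43 with day 10 alone, 3 with the replicate block, 4 without those genes, 6 without mixed cells and 4 to 10 with a graft left out. The cause of these shifts was not tested.

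Whether equally numbered grafts came from the same mouse is not given in the sources used here, although the study describes the replicates as paired, and the check of the numbers did not settle it. Deviations of equally numbered grafts from their group means correlated at 0.118 to 0.401 for graft 1 in the types other than granulocytes (0.0642) and at -0.238 to 0.128 for grafts 2 to 4, so the replicate block is given as a count only.

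With a graft left out, the granulocyte share in Rnls mut grafts minus that in WT grafts was 2.149 to 2.56 percentage points and that of CD8 cluster 9 was -6.047 to -4.182, and no exact p below 0.0571 is possible there. As a share of all cells, cluster 9 differed by -1.318 points. Signs of small differences in shares turned. That of Treg was -0.1491 points as a share of lymphoid cells and -0.02071 without NK cells, and with a graft left out it ran from -0.6894 (Rnls mut graft 3) to 0.5227, with -0.1562 without WT graft 2. That of CD8 T cells was 0.3735 without mixed cells and -2.086 to 0.07901 (Rnls mut graft 2) with a graft left out. For the Stem-Progenitor label the range was -1.571 to 0.1992 (Rnls mut graft 2), for monocytes -2.659 to 0.3382 (WT graft 4) and for macrophages -4.75 to 1.861 (WT graft 1), with 1.755 and 0.9437 without Rnls mut grafts 3 and 4. The median log2 difference of the MHC class II list in DC ran from -0.1868 to 0.07741 (Rnls mut graft 1). Depth limits granulocytes most.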

Other observations

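Cholesterol synthesis genes lay above 0 for 12 of 12 members in monocytes (median log2 difference 0.27), 9 of 9 in CD8 T cells (0.19), 10 of 14 in macrophages (0.22) and 7 of 11 in CD4 T cells (0.14), and none was called. Genes of the TGF-beta pathway lay above 0 for 11 of 12 members in CD4 T cells (0.12), 11 of 14 in macrophages (0.15) and 8 of 12 in CD8 T cells (0.12). None was called in the model of both days, and 1 was called higher in CD8 T cells with day 10 alone. Interferon gamma response genes mark cells exposed to T cell and NK cell cytokine. Their medians were close to 0, at -0.04 in CD4 T cells, -0.08 in CD8 T cells, -0.04 in macrophages, 0.06 in monocytes and 0.01 in DC. In CD8 T cells 2 of 20 were separated downward (10%, against 3.75% of all genes), and 2 were called lower with day 10 alone. In CD4 T cells 1 of 22 was separated downward (4.55%, against 4.19%). Upward, 2 of 23 were separated in DC (8.7%, against 2.21%) and 1 of 24 in macrophages (4.17%, against 1.85%). Type I interferon response genes had medians of -0.16 in CD4 T cells, -0.11 in CD8 T cells, -0.03 in macrophages, 0.06 in monocytes and -0.49 in the cells labelled Stem-Progenitor. None was called in the model of both days. In CD4 T cells 2 of 13 were separated downward (15.4%, against 4.19% of all genes), and 2 were called lower with day 10 alone.

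B and plasma cell genes summed to 40.7 to 99.4 CPM over all CD45+ cells of Rnls mut grafts and to 70.9 to 1400 in WT grafts, where graft 4 was the highest. Erythroid genes summed to 93 UMIs over the 8 grafts.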
